A study of Homo sapiens with 12 samples.

Results

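The response of wild-type (WT) HEK293T cells to 3 h of TNFα was measured by comparing 3 TNFα-treated with 3 untreated samples, 6 of the 12 samples of the series. HEK293T is a line derived from human embryonic kidney. The WT cells carry no change in *NFKB1*, and the other 6 samples come from HEK293T cells whose p50 has alanine in place of serine 80. The untreated group received no agent and the treated group received TNFα at 10 ng/ml for 3 h. Messenger RNA was sequenced, and reads were counted per gene. All genes that passed a filter on low counts were members, which left 14383 of the 33093 genes of the count table.

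TNFα is an inflammatory cytokine that binds a receptor present on most cells. The receptor gathers adaptors such as TRADD, RIPK1 and TRAF2, and these activate the IκB kinase (IKK). IKK marks IκB proteins for destruction, which lets NF-κB dimers enter the nucleus, bind κB sites and switch on genes for chemokines, cytokines, adhesion proteins and survival factors. Among the known targets are inhibitors of the same pathway, so the response carries its own brakes.

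Counted reads numbered 17724560, 20820493 and 18199915 in untreated replicates 1 to 3, and 17916964, 19120630 and 19316503 in TNFα-treated replicates 1 to 3. Samples within a group differed beyond counting noise, with a chi-square per gene of 6.09, 7.84 and 2.90 between pairs of untreated samples. TNFα-treated replicates 1 and 2 differed by 2.96, while replicate 3 differed from them by 13.6 and 14.4. Treated replicate 3 therefore stood apart from the other treated samples, and the GC content of genes, described at the end, differed along the same line. P-values measure the spread between samples within the 4 groups of the series, which the study describes as generated independently. Lower bounds of folds divide the treated mean by a fixed 3 counts per sample and include no error of that mean. In bulk RNA a change in the number of cells that express a gene cannot be told from a change in RNA per cell. Markers fixed for HEK293T cells were all measured: 11 of 11 passed the filter and 0 of them passed edgeR's test between the groups, 1 with an unadjusted p-value under 0.05. *VIM*, the intermediate filament gene vimentin, was the most abundant of them with 10593 ± 244 normalised counts in untreated cells (SD, n = 3). It was also the marker with the unadjusted p-value under 0.05. Its treated samples, at 13474 ± 660, lay above the untreated ones (log2 fold change 0.35, adjusted p by edgeR = 0.149). Of the leukocyte markers *CD68* passed the filter, while *PTPRC* and *CD3E* had 0 counts in each of the 6 samples. The 4 endothelial markers did not pass, and of 5 fibroblast markers *COL1A1* alone did.

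TNFα increased 83 genes (0.577% of those tested) and reduced 16 (0.111%), together 0.688% by edgeR (quasi-likelihood F test, p adjusted after Benjamini and Hochberg, threshold 0.05). The increases were larger than the reductions. With genes at the floor entered at their lower bound, a log2 fold change of at least 1 was reached by 49 of the 83 increased genes, of at least 2 by 17 and of at least 3 by 8. Among the 16 reduced genes 4 reached 1 in size and 0 reached 2. The median was 1.13 for the increased genes, with the same bounds, and -0.62 for the reduced genes, beside -0.00 for all genes tested. For each of the 99 genes the 3 treated samples lay outside the range of the 3 untreated ones, which held for 12.7% of all genes tested. An unadjusted p-value under 0.05 was found for 5.97% of genes.

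The increased genes held a small but visible part of the RNA. They took 1902, 1856 and 1839 CPM (counts after scaling to equal library totals) in the untreated samples and 3835, 3634 and 3607 in the treated samples. The genes were called as increased from these same samples, so a larger share in each treated sample follows from the call. The 16 reduced genes took 484, 474 and 467 CPM in untreated cells and 328, 332 and 346 after TNFα. That direction was fixed by the call in the same way. All 99 genes are protein-coding, as are 12840 of the 14383 tested. The increased genes spanned less of the genome, with a median of 19.7 kb from start to end against 33.1 kb for all tested genes and 37.0 kb for the reduced ones.

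Chemokines, the secreted proteins that attract leukocytes, include several genes with high fold changes. Of 15 listed 5 were increased and 0 reduced, and 7 were too low in all samples to be tested. Of the 8 tested genes 5 were at the floor in untreated cells. They passed the filter, set over all 12 samples, through treated counts, so no list median is given. *CXCL10*, which attracts T cells, had 0 counts in each untreated sample and 65.4, 35.6 and 47.0 normalised counts after TNFα. *IL8* (current symbol *CXCL8*), the main neutrophil attractant, had 0, 1.79 and 0 normalised counts before and 47.7, 44.4 and 34.3 after. *CXCL1*, a neutrophil attractant of the same family, went from 0, 2.68 and 3.09 to 70.6, 45.4 and 50.9. All treated samples were far above all untreated samples for these 3 genes, which were close to silent before treatment. *CXCL2* and *CXCL3*, close relatives of *CXCL1*, also rose. *CXCL2* had 0.987 ± 0.0801 normalised counts in untreated samples and 23.5 ± 8.29 in treated ones (SD, n = 3), without overlap. *CXCL3* was the 1 increased chemokine above the floor before treatment, at 7.25, 11.6 and 11.3, and had 87.2, 66.2 and 51.9 after it. Its log2 fold change was 2.74 (standard error, SE, 0.30, adjusted p by edgeR = 0.000126). Where no sample of a group exceeded 3 counts, the gene was taken as at the floor and its fold was computed against 3 counts per sample. On this scale *CXCL1* rose at least 18.8-fold, *CXCL10* at least 16.7-fold, *IL8* at least 14.2-fold and *CXCL2* at least 7.94-fold. The related *CXCL6* had 2.32 ± 0.69 and 11.8 ± 4.23 normalised counts (SD, n = 3) and did not pass (edgeR adjusted p = 0.109). As *CXCL1*, *CXCL2* and *CXCL3* are near copies, reads could be shared between them. The options used for counting were not given, so reads where genes overlap could not be assigned. *CXCL12* and *CXCL16*, which untreated cells already made, had log2 fold changes of -0.27 and 0.02. *CCL2*, *CCL5* and *CCL20* stayed under the filter with at most 4 counts in any of the 6 samples.

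**Figure D1:**
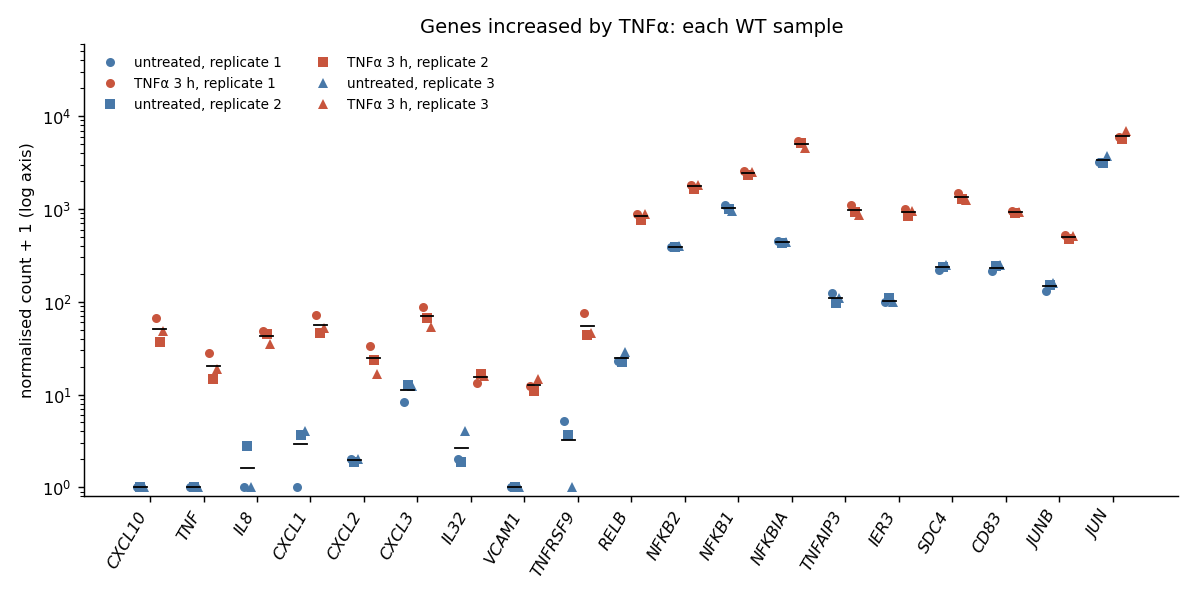
Normalised counts plus 1 (log axis) of 19 genes increased by TNFα, in each untreated (blue) and treated (red) WT sample; symbols give the replicate and lines the group mean. The treated samples lie above the untreated ones for every gene shown, and *CXCL10*, *TNF* and *VCAM1* have 0 counts before treatment.

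Among cytokines and growth factors 3 of 9 tested genes were increased and 0 reduced. Of the 9 genes 2, *TNF* and *IL32*, were at the floor in untreated cells. They passed the filter through their treated counts, so they could only be called as rises. *TNF*, which encodes TNFα itself, had 0 counts in the untreated samples and 27.0, 13.8 and 17.6 normalised counts in the treated ones, a rise of at least 6.58-fold. *IL32*, a proinflammatory cytokine, went from 1.04, 0.895 and 3.09 to 12.5, 15.8 and 14.7, at least 4.83-fold. *CSF1*, the growth factor of macrophages, rose from 114 ± 12.5 to 238 ± 43.7 (SD, n = 3), a log2 fold change of 1.05 (SE 0.20, adjusted p by edgeR = 0.0168). The treated samples did not overlap the untreated ones for any of the 3. *IL6*, *IL1A* and *IL1B* had at most 2 counts in any sample.

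Surface proteins of adhesion and of the TNF receptor family rose in 5 of 16 tested cases. Of the 16 genes 1, *VCAM1*, was at the floor in untreated cells. It passed the filter, set over all 12 samples, through treated counts that include those of the cells with altered p50. *VCAM1* was called in 10 of the 12 fits that left out 1 sample and in 6 of 10 other settings. *TNFRSF9* (CD137, a costimulatory receptor of T cells) had 4.14, 2.68 and 0 normalised counts in untreated cells and 74.7, 42.5 and 45.0 after TNFα. *VCAM1*, an adhesion protein that holds leukocytes on endothelium, had 0 in each untreated sample and 11.4, 9.88 and 13.7 in the treated ones, at least 3.94-fold. *SDC4*, a heparan sulfate proteoglycan, went from 222, 235 and 246 to 1477, 1290 and 1264. Both *TNFRSF9* and *VCAM1* were thus nearly absent before treatment, whereas *SDC4* rose from a measurable level with a log2 fold change of 2.52 (SE 0.12, adjusted p by edgeR = 6.96e-09). *CD83*, a surface protein of activated dendritic and B cells, rose by 1.99 (SE 0.10, adjusted p by edgeR = 1.15e-08), and *EFNA1*, an ephrin ligand, by 1.51 (SE 0.16, adjusted p by edgeR = 8.99e-05). *JAM2*, a junction protein, had 27.8 and 65.3 mean normalised counts and did not pass (edgeR adjusted p = 0.0601). *ICAM1* and *SELE*, 2 adhesion genes often used as markers of NF-κB activity, stayed under the filter with at most 5 counts in any sample.

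Of the 5 genes of NF-κB subunits 3 were increased. *RELB*, a subunit of the alternative pathway, had 21.7, 21.5 and 27.8 normalised counts in untreated cells and 883, 754 and 884 after TNFα, a log2 fold change of 5.15 (SE 0.14, adjusted p by edgeR = 1.58e-11). *NFKB2*, which encodes p100 and its product p52, had 385, 392 and 396 before and 1791, 1636 and 1834 after. *NFKB1*, which encodes p105 and its product p50, had 1091, 999 and 948 before and 2540, 2298 and 2508 after. The treated samples of these genes lay well above the untreated ones, with log2 fold changes of 2.16 for *NFKB2* (SE 0.09, adjusted p by edgeR = 1.09e-09) and 1.27 for *NFKB1* (SE 0.10, adjusted p by edgeR = 4.99e-06). *REL* had 178, 129 and 83.5 normalised counts before and 307, 278 and 282 after. Its untreated samples were spread widely, and the gene did not pass (log2 fold change 1.15, SE 0.39, adjusted p by edgeR = 0.486). *RELA*, the main transactivating subunit, had a log2 fold change of 0.17 (SE 0.08, adjusted p by edgeR = 0.77). Per kb of exon, *RELA* had 15.9 CPM in untreated cells and *RELB* 0.426, and after TNFα they had 17.9 and 15.1.

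Some genes of IκB proteins and of brakes on NF-κB signalling rose and others did not pass. *NFKBIA*, which encodes IκBα, had 453, 426 and 434 normalised counts before and 5408, 5165 and 4531 after TNFα. No treated sample came near the untreated ones, and the gain in CPM was the largest of any gene past the threshold. The log2 fold change was 3.52 (SE 0.10, adjusted p by edgeR = 1.58e-11). Of 6 IκB genes 3 were increased, with a list median of 0.91. The others were the nuclear IκB proteins *BCL3* (1.90, SE 0.23, adjusted p by edgeR = 0.000445) and *NFKBIZ* (1.33, SE 0.13, adjusted p by edgeR = 4.51e-05). *NFKBIE*, *NFKBIB* and *NFKBID* had log2 fold changes of 0.48, 0.22 and -0.05 and did not pass. Of 13 tested brakes that act upstream on the signal 4 were increased. *TNFAIP3* (A20), an enzyme that edits ubiquitin chains, went from 124, 96.6 and 108 normalised counts to 1109, 927 and 862. Its log2 fold change of 3.14 (SE 0.14, adjusted p by edgeR = 6.56e-09) was far above those of the other 3. The ubiquitin binding protein *OPTN* rose by 1.13, the deubiquitinase *CYLD* by 0.61 and the A20 partner *TNIP1* by 0.39, which was called in 5 of the 12 fits that left out 1 sample. The list median was 0.15.

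The genes that carry the signal from the receptor to IKK did not pass the test. Of 17 tested members of the TNF receptor complex and IKK, 0 were increased and 0 reduced by edgeR's test, 2 had an unadjusted p-value under 0.05, and the median was 0.01 (-0.01 when counts were scaled by library totals). The receptor gene *TNFRSF1A* had 630, 560 and 547 normalised counts before and 599, 551 and 595 after TNFα. Its groups overlapped, with a log2 fold change of 0.01 (SE 0.15, adjusted p by edgeR = 0.998). The values ranged from -0.30 for *IKBKG* to 0.26 for the kinase subunit *IKBKB*, which had an edgeR adjusted p of 0.382. *TNFRSF1B*, the other TNFα receptor, stayed under the filter with at most 6 counts. Of 13 adaptors and kinases that serve other immune receptors 4 rose. These were *TIFA*, an adaptor that oligomerises TRAF6 (1.33), *MAP3K8*, a kinase of the ERK pathway (1.20), *IRAK2*, a kinase of interleukin-1 and Toll-like receptors (0.81), and *TRAF3*, a restraint on the alternative NF-κB pathway (0.63). Their edgeR adjusted p-values were 2.01e-05, 8.35e-05, 0.0104 and 0.00088.

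Promoter sequences of the responding genes were read for matches to the κB consensus GGGRNWYYCC on either strand, with no mismatch allowed. R stands for A or G, N for any base, W for A or T and Y for C or T. The sequences are RefSeq promoters of GRCh38.p14 from 250 bases before to 50 after the start. Stretches of promoter from the gene's own strand are shown, 5′ to 3′, with the match, or overlapping matches of both strands, in capitals. They were chosen among genes with a match, mostly for high folds or as brakes, with *NFKB1* and the pair *APLF* and *FBXO48* in addition. Matches of other genes, among them *PTX3*, *SDC4*, *BCL3* and *IRF1*, are not shown. *TNF*, *IL8* and *NFKB2* held 0 matches in the same window. A site that departs from the pattern at any base would not be found, so 0 matches do not show that a promoter lacks a κB site. For *IL8* the study measured p50 and p65 at the promoter by chromatin immunoprecipitation, with primers flanking a κB site.
CXCL10, chr4:76023655-76023684: gaggagcagaGGGAAATTCCgtaacttgga
CXCL10, chr4:76023600-76023629: tctgcaacatGGGACTTCCCcaggaacagc
CXCL1, chr4:73869304-73869334: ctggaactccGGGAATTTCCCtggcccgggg
CXCL2, chr4:74099253-74099283: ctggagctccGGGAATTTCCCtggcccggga
CXCL3, chr4:74038748-74038778: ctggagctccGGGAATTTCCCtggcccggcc
TNFRSF9, chr1:7940893-7940923: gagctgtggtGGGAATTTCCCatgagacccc
VCAM1, chr1:100719670-100719699: tccccttgaaGGGATTTCCCtccgcctctg
IL32, chr16:3065294-3065324: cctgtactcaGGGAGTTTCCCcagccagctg
NFKBIA, chr14:35404811-35404840: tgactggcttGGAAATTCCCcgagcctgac
TNFAIP3, chr6:137867182-137867211: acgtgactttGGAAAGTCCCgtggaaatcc
TNFAIP3, chr6:137867194-137867223: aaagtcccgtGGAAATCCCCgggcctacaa
NFKB1, chr4:102501300-102501329: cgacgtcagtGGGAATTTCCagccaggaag
APLF, chr2:68467502-68467532: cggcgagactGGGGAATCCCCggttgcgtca
FBXO48, chr2:68467502-68467532: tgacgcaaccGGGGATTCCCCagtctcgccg

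The matches of *CXCL1*, *CXCL2*, *CXCL3* and *TNFRSF9* consist of the same 11 bases, and they begin at positions -79, -78, -79 and -74 from the start. *APLF*, a DNA end joining factor, and *FBXO48*, an F-box gene, lie head to head and share 1 stretch read from opposite strands. Both were increased, by 1.42 and 0.91, and *FBXO48* was chosen after its values were seen, as was *APLF*. Of the 83 increased genes 62 (74.7%) had a promoter in the RefSeq table, too few to give a share for the whole group, and 26 of those 62 held a match. Among all 27305 RefSeq promoters the share was 5.72%. In a window from 1000 bases before to 200 after the start of the canonical transcript, read from the GRCh38 genome, all 83 increased genes had sequence, and 49 of them (59.0%) held a match. The share was 12.5% of the 16 reduced genes and 22.9% of the 13618 tested genes with a start. The AP-1 site TGANTCA, read the same way in the longer window, was held by 20.5% of increased, 6.25% of reduced and 19.1% of all tested genes.

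Early response factors and the AP-1 family rose in 8 of 22 tested cases, with a median of 0.28. *IER3*, a stress-inducible survival regulator, had 98.3, 109 and 98.0 normalised counts in untreated samples and 987, 830 and 959 in treated ones. *JUNB* had 129, 149 and 159 before and 520, 477 and 504 after. *JUN* was abundant at all times, with 3210, 3127 and 3690 before and 5965, 5648 and 6860 after. The treated samples lay above the untreated ones for all 3, and the log2 fold changes were 3.18, 1.78 and 0.88 (standard errors 0.11, 0.12 and 0.09, edgeR adjusted p = 1.4e-10, 8.33e-07 and 6.46e-05). The stress factor *ATF3* rose by 1.02, *BTG2*, an antiproliferative gene, by 0.98, *KLF10* by 0.94, *CREB5* by 0.89 and *JUND* by 0.59. The serum response genes of the list had other values. *FOS* and *EGR1* had 17.2 and 21.1 normalised counts after TNFα and log2 fold changes of 0.31 and -0.37, and *MYC* had 0.05, none of them past the threshold.

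Among 13 tested phosphatases and other feedback inhibitors of MAP kinase signalling 3 phosphatases rose, *DUSP8* by 1.14, *DUSP1* by 0.81 and *DUSP16* by 0.60 (edgeR adjusted p = 0.00113, 6.07e-05 and 0.00502). Regulators of mRNA decay and translation rose in 5 of 18 cases, and 16 of the 18 had positive log2 fold changes, with a median of 0.35. *ZFP36L1*, which binds AU-rich elements and promotes decay, went from 430, 419 and 441 to 879, 1004 and 859 normalised counts. *SAMD4A*, a translational repressor, rose by 0.91. *PPP1R15A* and *PPP1R15B*, which guide a phosphatase to the initiation factor eIF2, rose by 0.62 and 0.71, and the RNA binding protein *RBM38* by 0.39, called in 4 of the 12 fits that left out 1 sample. *ZFP36* (tristetraprolin), the best known member of the family of *ZFP36L1*, had 28.9 and 31.7 mean normalised counts and a log2 fold change of 0.13. In a separate list 0 of 15 genes of amino acid starvation and ER stress passed edgeR's test, 1 of them with an unadjusted p-value under 0.05.

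Genes listed under survival rose in 3 of 11 cases, a label that need not hold for each member. *GADD45B*, a stress sensor that dampens JNK signalling, had 150, 138 and 139 normalised counts before and 511, 433 and 483 after, *PHLDA1* rose by 1.30 and *DRAM1*, a lysosomal regulator of autophagy, by 1.05. *DRAM1* was called in 6 of the 12 fits that left out 1 sample. The caspase inhibitor *BIRC3* had 2.07, 8.95 and 9.28 before and 17.6, 22.7 and 16.6 after. Its samples did not overlap, and it did not pass (edgeR adjusted p = 0.283). *BCL2L1*, *SOD2*, *CFLAR* and *XIAP* had log2 fold changes of -0.08, -0.03, 0.18 and 0.13. Among 8 BH3-only genes, whose products promote apoptosis, *BMF* was reduced and 0 were increased.

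Genes of proteases, their inhibitors and matrix rose in 6 of 12 tested cases, with a median of 0.53. *PTX3*, a secreted pattern recognition protein, had 33.1, 20.6 and 24.8 normalised counts before and 194, 145 and 114 after. *TNC*, a matrix glycoprotein of inflamed tissue, had 8.28, 9.84 and 7.22 before and 49.8, 34.6 and 50.9 after. *PLAU*, the urokinase plasminogen activator, had 7.25, 14.3 and 10.3 before and 40.5, 32.6 and 35.2 after. All 3 were scarce in untreated cells and did not overlap after treatment. *FIBIN* rose by 1.73, the protease inhibitor *TFPI2* by 1.08 and the tissue plasminogen activator *PLAT* by 0.92. *PLA2G4C*, a membrane phospholipase outside the lists that was chosen after its values were seen, rose from 8.20 ± 0.13 to 41.6 ± 3.31 (SD, n = 3).

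Of antigen presentation and interferon genes, 1 of 15 and 2 of 16 tested passed the threshold. *TAPBP*, which loads peptides on MHC class I, rose from 249, 202 and 195 to 618, 477 and 471 normalised counts, and was the 1 of 15 tested genes of antigen presentation past the threshold. The peptide transporter *TAP1* (0.48) and the MHC light chain *B2M* (0.28) had edgeR adjusted p-values of 0.0982 and 0.67, and *HLA-B* and *HLA-C* had log2 fold changes of 0.08 and 0.01. Of 16 interferon response genes *IRF1*, an inducible transcription factor, rose from 114, 132 and 118 to 373, 324 and 433, a log2 fold change of 1.63 (SE 0.14, adjusted p by edgeR = 1.17e-05). *IFIT1*, an antiviral RNA sensor, was the 1 reduced member. *ISG15* had a log2 fold change of -0.05, and *MX1* and *IFNB1* had at most 4 counts.

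The reduced genes include 1 of 8 BH3-only genes and 4 of 22 developmental transcription factors, a list in which 3 others were increased. *BMF*, a BH3-only activator of apoptosis, had 124, 99.3 and 118 normalised counts in untreated samples and 50.9, 40.5 and 48.9 after TNFα. *RTN4RL1*, a receptor that limits axon growth, had 71.4, 66.2 and 58.8 before and 34.3, 19.8 and 30.3 after. *SEMA6D*, an axon guidance ligand, had 87.0, 78.7 and 74.3 before and 46.7, 36.5 and 36.2 after. Treated samples of the 3 genes fell below all untreated ones, with log2 fold changes of -1.28, -1.22 and -1.01 (standard errors 0.18, 0.21 and 0.17, edgeR adjusted p = 0.00144, 0.0095 and 0.0102). *PPARGC1A*, a coactivator of mitochondrial biogenesis, had 26.9, 30.4 and 28.9 before and 15.6, 12.8 and 12.7 after (log2 fold change -1.07, SE 0.22, adjusted p by edgeR = 0.038). In the cells with altered p50 its log2 fold change was -0.10. The difference between the genotypes had an unadjusted p of 0.00426 and did not pass after adjustment. *PPARGC1A* was called in 2 of the 12 fits that left out 1 sample, and with a replicate block its adjusted p by edgeR was 0.0581. *MN1*, a transcriptional coactivator, fell by 0.98, *IFIT1* by 0.83 and the clock output factor *DBP* by 0.73. The neural and cardiac factor *ISL1* fell by 0.63, the BMP inhibitor *SMAD6* by 0.60, the receptor kinase *KIT* by 0.60, *KLF15* by 0.50 and *ID3*, a blocker of basic helix-loop-helix factors, by 0.49. The smallest called reductions, all chosen after their values were seen except *SOX12*, were those of *ZNF362* (-0.43), *RXRA* (-0.41), *SOX12* (-0.40) and *IDH1* (-0.39). *ZNF362* was called in 2 and *IDH1* in 5 of those 12 fits.

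**Figure D2:**
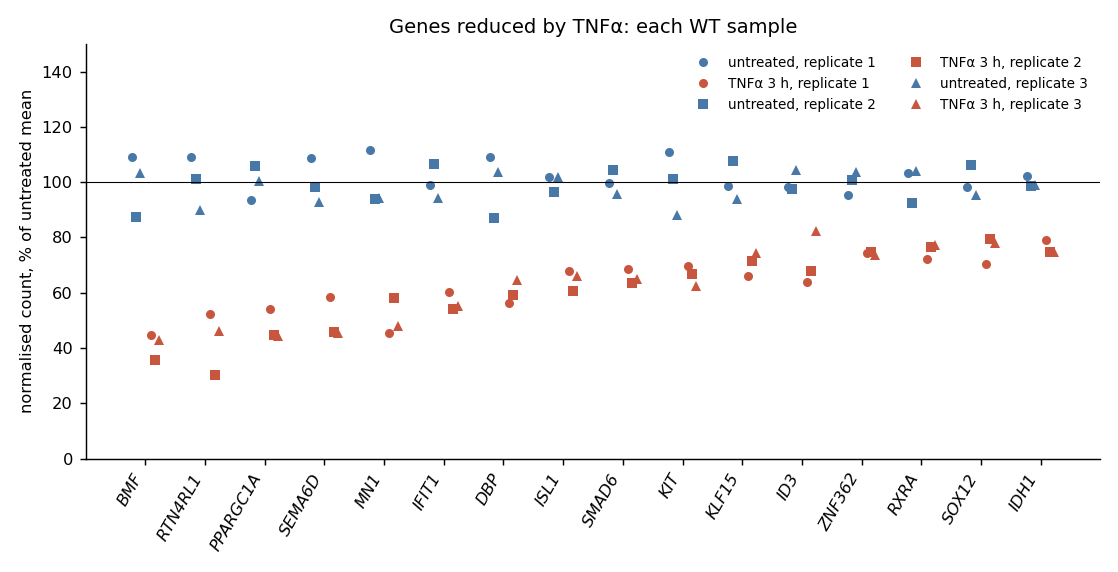
Normalised counts of the 16 reduced genes in each WT sample, as a percentage of the mean of the 3 untreated samples; blue is untreated, red is TNFα, and symbols give the replicate. All treated samples lie below all untreated samples of the same gene, and no gene is lost altogether.

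The count of reduced genes depended on single samples. It was 4, 6 or 7 without untreated WT replicate 1, 2 or 3, and 6, 3 or 12 without TNFα-treated WT replicate 1, 2 or 3. Samples of the other genotype share in the estimate of the spread. The count was 28 without their untreated replicate 2 and 10 without their treated replicate 2. *BMF* and *MN1* passed in all 12 fits that left out 1 sample, and no reduced gene changed sign in any of them.

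The listed targets and regulators of BMP and TGFβ signalling mostly had negative values. This list, like the others, was chosen with earlier results of these data known. Of 20 tested genes 2 were reduced (*SMAD6* and *ID3*), 1 was increased and 17 had negative log2 fold changes, with a median of -0.26 against -0.00 for all genes. The median ratio to untreated cells was -0.24, -0.24 and -0.28 in treated replicates 1, 2 and 3. The part of GC content in these values was not tested. *ID2* had a log2 fold change of -0.43 (edgeR adjusted p = 0.0982), *DACT1* -0.50 (edgeR adjusted p = 0.0586) and *ID1* -0.40 (edgeR adjusted p = 0.481). The increased gene was *MSX1*, a homeobox factor, which went from 623, 725 and 701 to 1489, 1437 and 1546 normalised counts. Developmental transcription factors changed in both directions, with 3 of 22 increased (*HAND1* by 0.88, *TFAP2C* by 0.69 and *SIX5* by 0.62) and 4 reduced (*MN1*, *ISL1*, *KLF15* and *SOX12*), and a median of -0.01.

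Other functions gave no member past the threshold by edgeR's test. This held for 12 genes of cholesterol synthesis (median -0.04, 1 with an unadjusted p-value under 0.05), 13 of glycolysis and hypoxia (-0.03, 2 such genes), 18 of the cell cycle (0.02, 0 such genes), 16 ribosomal proteins (-0.06, 0 such genes) and 12 reference genes (-0.00, 1 such gene). Of 13 circadian genes *DBP* alone passed. *ACTB* and *GAPDH* had log2 fold changes of -0.05 and -0.06.

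The content of G and C bases was examined because TNFα-treated replicates 1 and 2 drifted with it. For each sample the log2 ratio of its normalised count, plus 2, to the mean of the untreated samples was set against the exonic GC content over 13618 tested genes (94.7%). Untreated samples were set against the other untreated ones. The slope per 10 percentage points of GC was -0.00139, 0.0299 and -0.0315 in untreated replicates 1, 2 and 3. In treated replicates it was -0.110 in replicate 1, -0.130 in replicate 2 and 0.0303 in replicate 3. Replicates 1 and 2 thus lay outside the range of the untreated samples on the negative side, and replicate 3 lay close to untreated replicate 2. In the tenth of genes with the least GC, at most 38.6%, the median log2 ratio was 0.19 and 0.23 in replicates 1 and 2 and -0.11 in replicate 3. In the tenth with the most GC, at least 61.3%, the medians were -0.12, -0.13 and -0.01. Between those outer groups of genes the median fitted log2 fold change of the group ran from 0.11 to -0.09, and after each sample was corrected for GC it ran from 0.00 to -0.01.

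**Figure D3:**
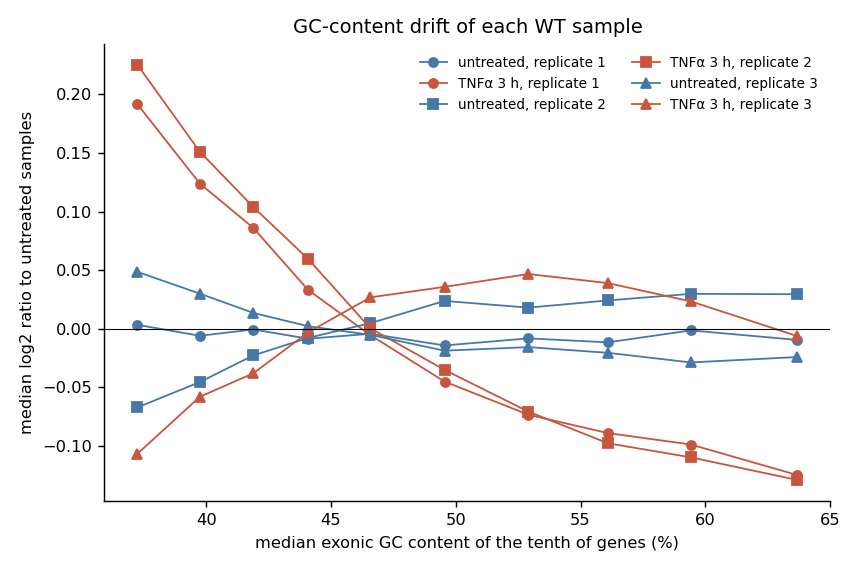
Median log2 ratio to untreated samples (vertical axis) in 10 groups of genes ordered by exonic GC content (horizontal axis, median of each group in percent). Blue lines are untreated and red lines TNFα-treated samples. Treated replicates 1 and 2 fall from 0.19 and 0.23 to -0.12 and -0.13, while replicate 3 starts at -0.11.

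Drift and response were set side by side. The median ratio of the 83 increased genes was 1.17, 1.09 and 1.03 in treated replicates 1, 2 and 3, and that of the 16 reduced genes was -0.62, -0.69 and -0.62. These genes were called from the same samples, and reductions such as that of *ID3* (-0.49) are of a size near the differences of -0.32 and -0.35 between the outer GC groups in replicates 1 and 2. The ratio of *ID3* was -0.65, -0.56 and -0.28 in the 3 treated replicates. Treated replicate 3 lay between the other treated samples for 24 of the 83 increased genes and for 21.1% of all tested genes. Among the 83 it was the lowest treated sample for 40 and the highest for 19. The median GC content was 48.8% for increased and 56.7% for reduced genes, beside 47.9% for all tested genes. After correction for GC, 97 genes were increased and 22 reduced. Of these, 81 and 16 were among the original 83 and 16, so every gene called reduced was also reduced after correction. The 2 increased genes that no longer passed, *FNDC3B* and *FBXO48*, had corrected log2 fold changes of 0.52 and 0.83 with adjusted p-values of 0.0794 and 0.0779 by edgeR and were singled out after their values were seen. Ribosomal protein genes had median ratios of -0.13 and -0.12 in replicates 1 and 2 and 0.08 in replicate 3. With replicates 1 and 2 both left out, so that the single remaining treated sample was assumed to vary like the other groups, 34 genes were increased, 33 of them among the 83, and 0 were reduced by edgeR's test, 325 with a lower value having an unadjusted p-value under 0.05. The part of GC content in single fold changes was not tested further.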

How the data were processed

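Messenger RNA of 12 HEK293T samples in 4 groups was sequenced (stranded library kit), and the deposited table holds read counts per gene. According to the submitters' notes the authors used FastQC, HISAT, StringTie, HTSeq and DESeq2 with GRCh38, and gave no versions or counting options. The authors' lists of changed genes hold fold changes and p-values and were not used. Of 33121 rows, 28 with a date for a symbol were left out. Symbols were matched to the annotation (22098 current, 1570 older, 9425 unmatched). The description label of treated wild-type (WT) replicate 3 repeats that of replicate 2, and its title was used. Python 3.11.15 with numpy 2.4.6 and pandas 2.3.3, and R 4.3.3, were used.

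All 12 samples were fitted with edgeR 4.0.16 (filterByExpr with a minimum count of 10, TMM scaling, quasi-likelihood F test, Benjamini-Hochberg adjustment, threshold 0.05), and treated WT samples were contrasted with untreated ones (3 each). These steps were tested on simulated data. Standard errors are the log2 fold change over the square root of F. Normalised counts are counts divided by relative effective library size. Where no sample of a group exceeded 3 counts, a lower bound of the fold was given. Counted reads per WT sample ran from 17724560 to 20820493.

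Genes were placed in 31 lists. Named genes were, among those past the threshold with at least 1 CPM and no overlap between groups, the 12 largest rises and 12 largest falls; the 5 largest rises in CPM; up to 4 members of each list with the smallest p-values; and all tested NF-κB, IκB and TNF receptor complex genes. Members and lists were chosen with earlier results of these data known. Other list members the text names were chosen after their values were seen.

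Alternatives were DESeq2 1.42.0 (test and size factors), total counts, other count filters, WT samples alone, a replicate block, a correction for GC content, both together, a minimum fold change and leaving out samples.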

Additional observations from a re-analysis of the deposited data

How the results depend on the processing

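The count of increased genes (83) stayed within 1.5 times under most settings. It was 34 without TNFα-treated replicates 1 and 2 and 49 when log2 fold changes also had to reach 1, and it ran from 59 to 117 when each sample was left out in turn. The count of reduced genes (16) was less stable. It was 41 by the DESeq2 test, 28 with the GC correction and replicate block together, 0 without TNFα-treated replicates 1 and 2 and 4 when they also had to reach 1 in size, and it ran from 3 to 28 when each sample was left out. The smaller counts under the added fold change follow from that requirement, and for the other settings the cause was not tested. In the fit without treated replicates 1 and 2 the lone treated sample was assumed to vary like the other groups.

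With a replicate block 93 genes were increased and 20 reduced. Replicate numbers did not act as pairs, since the correlations between samples of the same number were 0.212, 0.0146 and -0.0570 for replicates 1, 2 and 3. The remaining settings gave 120 increased genes by the DESeq2 test, 97 increased and 22 reduced with the GC correction, 110 increased with the GC correction and replicate block, 109 and 24 with the WT samples alone, 98 and 16 with no filter, 69 and 16 with at least 10 counts in every WT sample, 75 and 15 with total counts and 83 and 16 with DESeq2 size factors. In all 12 fits that left out 1 sample 53 increased and 2 reduced genes were called, and 0 called genes changed sign. The longer window read from the genome covers more genes than the RefSeq table. In it 59.0% of the 83 increased genes held a κB match. In the short window 26 of the 62 increased genes with a RefSeq promoter did (41.9%), which is not a share of the whole group. Among tested genes with sequence the share was 22.9% in the longer window and 6.66% in the short one. The window alone was not changed.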

Other observations

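Of the 99 changed genes 32 are in none of the gene lists, and those named here were chosen after their values were seen. Secreted and transport proteins are among them. *CALCB*, a calcitonin-related peptide, had 218, 222 and 249 normalised counts in untreated samples and 658, 594 and 720 after TNFα. *NDNF*, a secreted neurotrophic factor, had 109, 99.3 and 78.4 before and 272, 273 and 280 after. The treated samples of both lay above all untreated ones, with log2 fold changes of 1.52 each (edgeR adjusted p = 3.48e-05 and 3.77e-05). The monocarboxylate transporter genes *SLC16A6* and *SLC16A9* rose by 1.47 and 1.33, and *SLC16A9* had 741, 634 and 495 after treatment against 274, 238 and 229 before.

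*IL6ST*, the shared receptor chain gp130 of the interleukin-6 family, had 1152, 997 and 1094 normalised counts before and 2058, 2093 and 1490 after TNFα (log2 fold change 0.80, edgeR adjusted p = 0.0177). *JAK1*, the kinase bound to it, rose by 0.32 (edgeR adjusted p = 0.0388), which was the smallest increase past the threshold. *IL6ST* was called in 7 and *JAK1* in 3 of the 12 fits that left out 1 sample. *LACC1*, an immunometabolic enzyme, rose by 1.10, the kinase *NUAK2* by 1.10 and the lymphoid zinc finger gene *IKZF3* by 1.35. *LACC1* was called in all 12 of those fits, *NUAK2* in 6 and *IKZF3* in 7. Treated replicate 3 was the lowest treated sample for *IL6ST*, *JAK1*, *SLC16A6* and *SLC16A9*.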
